A study of Mus musculus with 12 samples.

Results

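Transcripts of the adrenergic receptors, the receptors for noradrenaline and adrenaline, were examined in prefrontal cortex of adult mice after cocaine or saline in adolescence. The members were the 6 genes Adra1a, Adra1b, Adra1d, Adra2a, Adra2c and Adrb1, taken by name from a table of 28842 genes. Adra2b and Adrb3, of the same family, are given beside them. None of the 6 differed between the groups beyond the spread of the libraries. Their levels per gene length were ordered from Adra1d down to Adra1a, and Adra1a varied 6.91-fold between its highest and lowest library.

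The 12 libraries came from male, wild-type C57BL/6J mice, a standard inbred strain, with tissue taken on postnatal day 78, 30 to 60 min after a conditioned place preference test (a test of how much an animal seeks a place paired with a drug). The 6 saline libraries are from mice given saline from postnatal day 28 to day 42, and the 6 cocaine libraries from mice given 15 mg/kg cocaine over the same days. Both groups had a pre-test on day 75 and 1 mg/kg cocaine before training on days 76 and 77, so no group is free of cocaine. By the treatment label the groups differ in adolescent exposure only. The labels also carry a time tag of day 0 (replicates 1, 3 and 5 of each group) or day 5 (replicates 2, 4 and 6), which is balanced between the groups and whose meaning they do not give. With this tag as a covariate 0 of the 6 receptors passed (limma). Whether every library is a mouse of its own is not in the labels. The p-values therefore describe only library-to-library spread, which may be technical.

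Adrenergic receptors are G protein-coupled receptors of 3 classes. Alpha-1 receptors act through Gq proteins and phospholipase C, alpha-2 receptors act through Gi proteins and lower cyclic AMP, and beta receptors act through Gs proteins and raise it. Noradrenaline reaches the prefrontal cortex from neurons of the locus coeruleus in the brainstem. In this tissue it is known for its part in arousal, attention and working memory, and cocaine blocks its reuptake.

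Saline libraries held 16714249 to 19887591 reads and cocaine libraries 16915856 to 18826677, with 3.24 to 5.27 and 3.30 to 5.43 percent from mitochondrial genes. The labels also name a mesenchymal stem cell line, but the 9 markers of excitatory cortical neurons summed to between 69603 and 104274 normalised reads in saline and between 74379 and 98117 after cocaine. Saline 5 stood apart through choroid plexus transcripts: its summed level of that list was 11623 normalised reads, against a highest value of 292 after cocaine. For scale, Dusp1, the gene of the series title, stood 0.66 ± 0.13 (log2, SE) higher after cocaine (exact permutation p = 0.00216), and its limma adjusted p over all genes was 1.00.

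Levels were compared between receptors only as FPKM, which divides reads by gene length and by the library's total. Adra1d, an alpha-1 receptor gene, had the highest level, with 24.2 ± 4.45 FPKM after saline and 24.3 ± 3.69 after cocaine (SD, n = 6 each). Adrb1, which codes for the beta-1 receptor, followed with 17.7 ± 1.67 and 19.3 ± 2.04 FPKM. Adra1b stood at 12.8 ± 2.45 and 13.2 ± 1.92 FPKM. The 2 alpha-2 members were lower, with Adra2c at 8.37 ± 0.984 and 9.35 ± 1.25 FPKM and Adra2a at 5.56 ± 1.07 and 4.97 ± 0.812.

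Adra1a was the lowest member, with 1.10 ± 0.707 FPKM after saline and 0.958 ± 0.570 after cocaine. Its mean of 1.03 FPKM stood just above the minimum of 1 FPKM for testing. Adrb3 (mean 0.789 FPKM) lay under that minimum, and Adra2b (0.0633) far under it. Among all 13016 genes tested, 83.0 percent had a lower mean level than Adra1d, 42.7 percent a lower one than Adra2a and 0.722 percent a lower one than Adra1a.

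The order held within libraries for most neighbours. Adra1d was above Adrb1 in 12 of 12 libraries, Adrb1 above Adra1b in 11, Adra1b above Adra2c in 12, and Adra2c above Adra2a in 11. The ranges of each of these 4 neighbouring pairs nevertheless overlapped across libraries. Adra2a was above Adra1a in 12 of 12 with no overlap (5.12-fold by the means). Adra1a and Adrb3 did not separate, with Adra1a the higher in 7 of 12 libraries, while Adrb3 was above Adra2b in 12 of 12 with no overlap. Summed by class over these 8 genes, alpha-1 genes took 53.7 ± 3.41 percent of the FPKM after saline and 52.6 ± 2.67 percent after cocaine. Adrb1 and Adrb3 together took 26.4 ± 2.06 and 27.6 ± 2.25 percent, and alpha-2 genes 19.9 ± 2.10 and 19.8 ± 2.16 percent (SD, n = 6 each). The groups overlapped in each of these shares (two-sided exact permutation p of 0.550, 0.377 and 0.929; adjusted p of 0.799 or above).

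**Figure D1:**
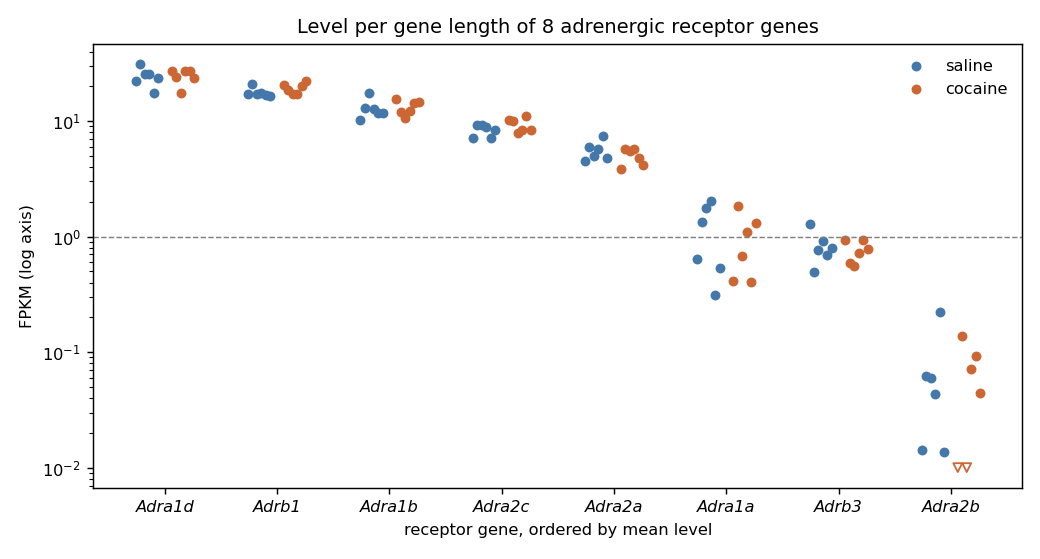
Level of 8 receptor genes in FPKM (log axis) in every saline and cocaine library, ordered by the mean, with 1 point per library, open triangles for libraries with 0 reads and a dashed line at the minimum of 1 FPKM. Points fall from Adra1d (17.6 to 31.1 FPKM) to Adra2b (at most 0.220 FPKM), and Adra1a spreads from 0.311 to 2.03 FPKM.

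Lengths enter these levels. The gene models of Adra1a, Adra1b, Adra1d and Adra2c in the table have the same start and end as in GENCODE M21 (GRCm38). For Adra2a and Adrb1 the table's models span 3801 and 2491 bases, while the M21 models hold 4832 and 3382 exon bases. On chromosome 2, Adra1d occupies 131545850 to 131562283 (minus strand), and on chromosome 11 Adra1b occupies 43774606 to 43901210 (minus strand). Adra1a lies on the plus strand of chromosome 14 from 66635251 to 66771168. It spans 135918 bases, of which 8728 are exon bases, the most of the 6 members. Adra2c is on the plus strand of chromosome 5 from 35278319 to 35281763. Adra2a (54045182 to 54048982) and Adrb1 (56722372 to 56724862) are both on the plus strand of chromosome 19.

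The series, by its title, concerns drug sensitivity in adults that were exposed to cocaine as adolescents, and the comparison asks which transcripts differed in their prefrontal cortex. By limma with Benjamini-Hochberg adjustment over all 13016 genes, 0 of the 6 receptors passed an adjusted p of 0.05, where 0 percent of all genes did. At an unadjusted p under 0.05 there were 0 of 6, against 1.14 percent of all genes. By edgeR, too, 0 of 6 passed (background 0 percent adjusted and 1.58 percent unadjusted), and by DESeq2 0 of 6 (0.0104 and 1.48 percent), with 0 of 6 under an unadjusted 0.05 in either. The groups overlapped in all 6 members, while 0.0768 percent of tested genes did not overlap. Of the 6, 4 were higher and 2 lower after cocaine by their means, with a median difference of 0.03 (log2), beside 0.01 over all genes tested. In bulk tissue, fewer cells of a type and less RNA per cell cannot be told apart.

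Among the alpha-1 receptors, Adra1d, which codes for the alpha-1D receptor, ranged after saline from 576 to 1056 normalised reads (median 817). In cocaine libraries it ranged from 583 to 901 (median 856). The saline range enclosed every cocaine library, and the lowest libraries of the groups, saline 5 and cocaine 3, were close to each other. The log2 difference was 0.01 ± 0.14 (SE), with a 95 percent interval from -0.30 to 0.32 (exact permutation p = 0.931, n = 6 each). That sign was negative with library weights (-0.11), with an oligodendrocyte covariate (-0.01), by edgeR with no count filter (-0.01), and without saline 1, 5 or 6 or cocaine 1, 4 or 5 (down to -0.08 without saline 5). Of its 1899 exon bases, 147 are shared with Gm14285 on the opposite strand, and the strand setting of the counting is not given in the sources used here. Gm14285 had 21.3 ± 5.09 normalised reads with saline and 29.9 ± 9.58 after cocaine.

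Adra1b, which codes for the alpha-1B receptor, ranged from 599 to 1081 normalised reads after saline (median 732) and from 627 to 928 after cocaine (median 785). Saline 3 was the highest library, and every cocaine library fell inside the saline range. The log2 difference was 0.05 ± 0.14 (SE; 95 percent interval -0.25 to 0.34; exact permutation p = 0.764). It turned to -0.02 without saline 1 and to -0.003 without cocaine 1.

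Adra1a, which codes for the alpha-1A receptor, spread far more widely. In saline 1 to 6 it stood at 97.1, 207, 282, 322, 46.5 and 78.4 normalised reads. In cocaine 1 to 6 it stood at 63.6, 295, 103, 166, 60.7 and 203. Low and high libraries occurred in both groups, and saline 4 held 6.91 times the value of saline 5. The log2 difference was -0.13 ± 0.50 (SE), and its 95 percent interval of -1.21 to 0.95 leaves room for a fold between 0.434 and 1.94 (exact permutation p = 0.818). Its sign depended on single libraries: leaving out saline 3 gave 0.08, saline 4 gave 0.12, cocaine 1 gave 0.07, cocaine 5 gave 0.08 and saline 5 gave -0.43.

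The differences of the 2 alpha-2 receptors had opposite signs, neither beyond the spread. Adra2a codes for the alpha-2A receptor, which is known as an autoreceptor on noradrenergic neurons and as a postsynaptic receptor of prefrontal pyramidal cells. It ranged from 297 to 486 normalised reads after saline (median 371) and from 257 to 398 after cocaine (median 340). Saline 5 was the highest and cocaine 1 the lowest, and 2 of 6 cocaine libraries exceeded the saline median. The log2 difference was -0.16 ± 0.14 (SE; 95 percent interval -0.46 to 0.14; exact permutation p = 0.310). Without saline 5 the difference was -0.08, and without cocaine 1 it was -0.09.

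Adra2c, which codes for the alpha-2C receptor, ranged from 423 to 588 normalised reads after saline (median 525) and from 477 to 658 after cocaine (median 566). Cocaine 1, 2 and 5 lay above every saline library, while the other 3 cocaine libraries lay inside the saline range. The log2 difference was 0.16 ± 0.12 (SE; 95 percent interval -0.09 to 0.40; exact permutation p = 0.214). It was 0.04 with library weights, and stayed positive in every alternative run. The ratio of Adra2c to Adra2a within a library, which does not depend on library scaling, was 0.46 ± 0.34 after saline and 0.77 ± 0.35 after cocaine (log2, SD). That difference of 0.32 had an exact permutation p of 0.158, the lowest of the 15 ratios between members. All 15 had an adjusted p of 0.860 or above, and the ratios were added after the values were seen.

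Adrb1 had the narrowest spread of the 6 members. It ranged from 694 to 937 normalised reads after saline (median 763) and from 738 to 986 after cocaine (median 852). Cocaine 6 was the highest library and saline 6 the lowest, and 4 of 6 cocaine libraries exceeded the saline median. The log2 difference was 0.12 ± 0.09 (SE; 95 percent interval -0.08 to 0.32; exact permutation p = 0.210). The upper bound corresponds to a 1.25-fold increase and the lower to a fold of 0.945. Without cocaine 6 the difference was 0.07.

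**Figure D2:**
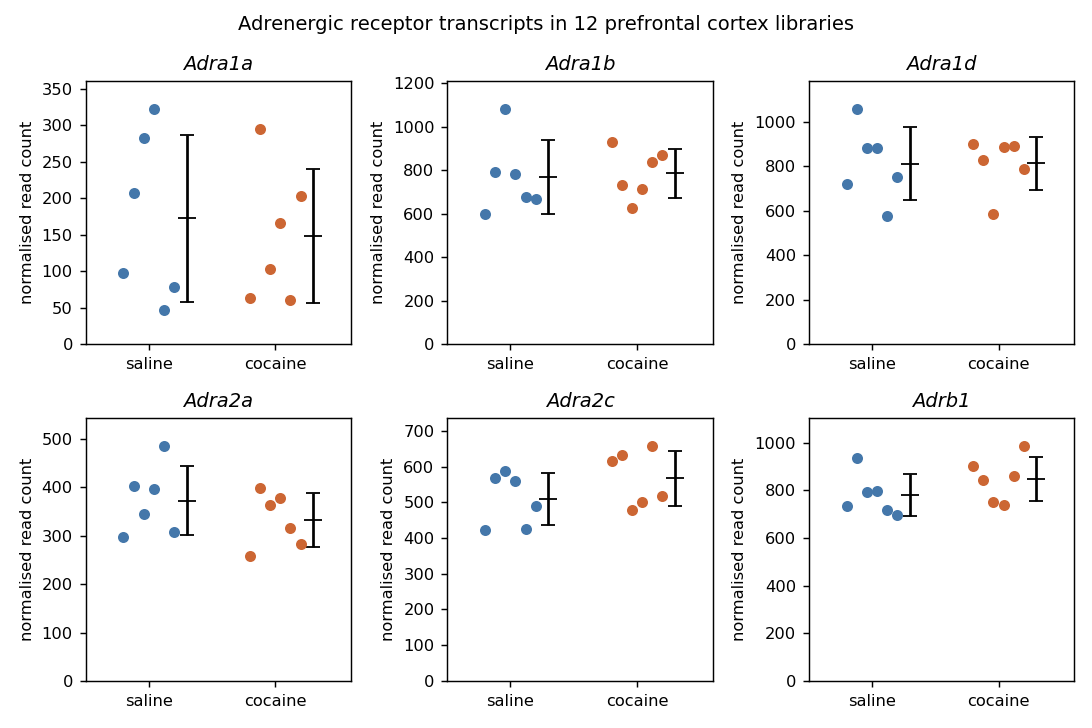
Normalised read count of each of the 6 receptors in the 6 saline and 6 cocaine libraries (points), with the group mean and SD (black). The groups overlap in every panel, and Adra1a ranges from 46.5 to 322.

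Adrb3 and Adra2b were under the minimum level of the main limma test. Adrb3 was tested by limma with a lower filter, by edgeR and by DESeq2. Adra2b was tested only with no filter (limma and edgeR) and by DESeq2, and neither gene passed in any of these. Adrb3, which codes for the beta-3 receptor, had 48.9 ± 15.3 normalised reads with saline and 44.7 ± 9.38 after cocaine (SD, n = 6; exact permutation p = 0.665). It shares 839 of its 3376 exon bases with Gm45470 on the opposite strand, which had 22.1 ± 6.07 and 23.5 ± 8.38 normalised reads. With a minimum of 0.1 FPKM, Adrb3 did not pass (limma adjusted p = 1.00).

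Adra2b, which codes for the alpha-2B receptor, was near the limit of detection. Its highest value was 15.2 normalised reads in saline 5, the library with choroid plexus transcripts, and the other saline libraries had between 0.923 and 4.49. No read was counted in cocaine 1 and cocaine 3, which allows up to 3 reads (2.98 and 3.05 normalised reads) by counting error alone. The remaining cocaine libraries had up to 10.1.

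The authors' deposited table gives log2 fold changes of -0.21 for Adra1a, 0.03 for Adra1b, 0.002 for Adra1d, -0.16 for Adra2a, 0.16 for Adra2c and 0.12 for Adrb1. Its adjusted p is 1.00 for each of these 6 receptors.

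Partners of the receptors were read from 6 lists. Of their 68 genes, 57 were tested. By their means 26 were higher and 31 lower, where 53.7 percent of all genes tested were higher. By limma 0 passed the adjusted threshold (0 percent of all genes) and 0 had an unadjusted p under 0.05 (1.14 percent of all genes). Genes of noradrenaline synthesis, uptake and breakdown split into 5 higher and 2 lower of 7 tested (median 0.03, log2). Th, tyrosine hydroxylase, the rate-limiting enzyme of catecholamine synthesis, had 79.4 ± 12.6 normalised reads with saline and 73.2 ± 12.6 after cocaine (log2 -0.12 ± 0.15 SE), a difference of -0.05 without cocaine 4. Maob, a monoamine oxidase, stood at 460 ± 53.6 and 480 ± 53.7. Dbh, which turns dopamine into noradrenaline and is made in the cell bodies of noradrenergic neurons, had 4.40 ± 2.48 and 4.16 ± 1.03, and the noradrenaline transporter Slc6a2 0.163 ± 0.400 and 0.505 ± 0.849. Both were too low to be tested.

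Of the G protein alpha subunits 2 were higher and 7 lower of 9 tested (median -0.02). Gnas, the stimulatory subunit used by beta receptors, had 3116 ± 367 and 2921 ± 597 normalised reads, and Gnal, a related stimulatory subunit, 2815 ± 379 and 2658 ± 246. For Gnas the log2 difference of -0.11 was 0.001 without cocaine 3. Receptor kinases and arrestins, which end receptor signalling, were 1 higher and 5 lower of 6 tested (median -0.04). Grk3 stood at 2475 ± 303 and 2334 ± 214 and Grk5 at 302 ± 70.4 and 279 ± 40.3.

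Effectors of the alpha-1 receptors were 4 higher and 5 lower of 9 tested (median -0.02). Plcb3, a phospholipase C, had 221 ± 11.4 and 200 ± 33.0 normalised reads (log2 -0.16 ± 0.11 SE). That difference was -0.08 without cocaine 3 and -0.23 without cocaine 2. Of adenylyl cyclases, protein kinase A and phosphodiesterases 10 were higher and 7 lower of 17 tested (median 0.01). Adcy8, an adenylyl cyclase stimulated by calcium, had the largest difference of the 11 partner genes tested and named, with 432 ± 65.9 and 503 ± 71.9 (log2 0.22 ± 0.12 SE; limma unadjusted p = 0.0959, adjusted p = 1.00). In 5 of 6 cocaine libraries it exceeded the saline median, and without saline 5 the difference was 0.14. Adcy9, another adenylyl cyclase, named after its value was seen, lay at the other end of this list with -0.21. Pde4a, which breaks down cyclic AMP, had 2326 ± 278 and 2197 ± 225.

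Channels that noradrenaline signalling acts on were 4 higher and 5 lower of 9 tested (median -0.03). Kcnj3, a potassium channel opened by Gi-coupled receptors, stood at 1686 ± 170 and 1797 ± 224 normalised reads, and the calcium channel subunit Cacna1b at 2093 ± 696 and 1891 ± 487. The Cacna1b difference of -0.12 (log2) was 0.001 without saline 4. None of these 11 tested partners differed beyond the spread of the libraries in the main fit. In some alternative fits Adcy8 had an unadjusted limma p under 0.05. The lowest was 0.0133 with the length contrast (defined below) as a covariate, where its adjusted p was 0.995. That fit was added after the data were seen. In it 502 of 13016 genes had an unadjusted p under 0.05, against 149 in the main fit. Without cocaine 2, Plcb3 had an unadjusted limma p of 0.0482, where 177 of 13016 genes were under 0.05.

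**Figure D3:**
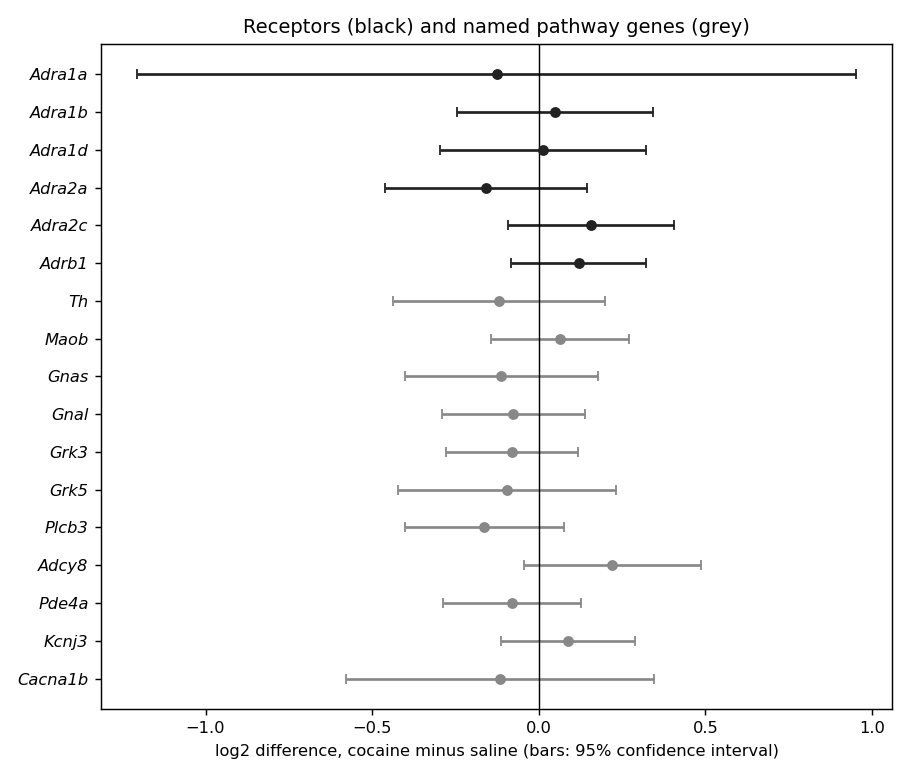
Log2 difference of cocaine over saline for the 6 receptors (black) and the 11 tested partner genes (grey), with the 95 percent confidence interval of the limma fit. Every interval includes 0, and that of Adra1a (-1.21 to 0.95) is the widest of the 17.

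Among the 6 members Adra1a had the largest spread. Its SD over the 12 libraries was 0.97 (log2), against 0.16 for Adrb1, 0.21 for Adra2c and 0.25 to 0.26 for Adra1b, Adra1d and Adra2a. The median over all genes tested was 0.22, and 173 of the 13016 genes had a larger SD than Adra1a. Outside the members, Adra2b, with few reads, spread more widely still, with a log2 SD of 1.14 after saline and 1.49 after cocaine, against 1.11 and 0.92 for Adra1a. The values of Adra1a followed a pattern shared by many genes. Of 11566 named genes compared over the 12 libraries, 1014 had a Pearson r above 0.9 with Adra1a and 523 an r below -0.9. For the other 5 members at most 16 genes passed 0.9 (Adra1d) and at most 2 fell below -0.9.

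Among the genes most like Adra1a was Tmem132b, with 8238 exon bases (r = 0.994, rho = 0.979). The gene that ran most opposite was Bcap31, a protein of the endoplasmic reticulum with 1219 exon bases (r = -0.994). These are descriptions over 12 libraries that share their normalisation.

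A length contrast was therefore computed for each library, after the values were seen. It is the median log2 deviation of the 2910 longest protein-coding genes (6886 bases or more) minus that of the 2911 shortest (2810 bases or fewer), and Adra1a is itself 1 of the longest. The contrast ran from -0.40 in saline 5 to 0.39 in saline 4, and its groups overlapped (0.02 ± 0.32 after saline and -0.03 ± 0.26 after cocaine, SD, n = 6; exact permutation p = 0.773). It followed the first principal component of all tested genes, which held 43.4 percent of the variance, with r = 0.979.

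Adra1a tracked the length contrast with r = 0.974 and rho = 0.965 over 12 libraries. The contrast was computed because of the lengths of the genes most like and most opposite to Adra1a, so these values are a description and no p is given. Without saline 5 and cocaine 1, the libraries farthest from the median of the contrast, r was 0.963. Adra1a is one of the long genes, with 86.7 percent of tested genes shorter, and its slope of 3.39 (log2 per unit of the contrast) was exceeded by 48 tested genes. For the other 5 receptors r with the contrast was between 0.21 and 0.36. Without saline 5 and cocaine 1 it was between 0.20 (Adra2c) and 0.52 (Adra2a). With the contrast as a covariate the Adra1a difference was 0.04 ± 0.13 (log2, SE) in place of -0.13 ± 0.50, and it did not pass (limma adjusted p = 0.997). Over the 12 libraries the contrast had r = 0.84 with the sum of a library's normalised reads. Its r was -0.58 with the mitochondrial percent and -0.15 with the number of reads. These values are descriptions. RNA quality values are not used here, and the part of RNA quality or tissue makeup in the contrast was not tested.

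**Figure D4:**
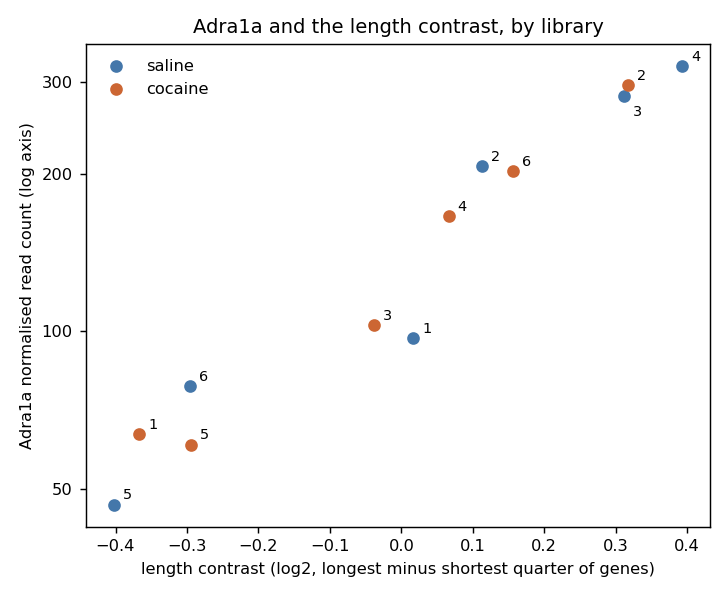
Adra1a normalised read count (log axis) against the length contrast in each library, with replicate numbers beside the points. Saline and cocaine libraries lie along one line, from saline 5 (46.5 reads) to saline 4 (322 reads), with r = 0.974.

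The other receptors varied together in part. Among Adra1b, Adra1d, Adra2c and Adrb1, a group picked after the values were seen, the 6 pairs had Pearson r from 0.58 to 0.72 and Spearman's rho from 0.64 to 0.77 over the 12 libraries. Adjusted over all 15 pairs of members, 0 passed by Pearson's r (permutation p, the lowest 0.0865) and 3 by Spearman's rho. Those 3 were Adra1b with Adra2c (rho = 0.77), Adra1b with Adrb1 (rho = 0.73) and Adra1d with Adra2c (rho = 0.74), each with an adjusted permutation p of 0.0429.

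Without the 2 libraries farthest from the median of the first gene, r of these 3 pairs was 0.663, 0.830 and 0.603. Adra2a stood outside the group, with rho from -0.22 to -0.04 with those 4 genes. Its r of -0.22 with Adra1d was 0.18 without saline 5, where Adra2a was highest and Adra1d lowest. Its r of -0.20 with Adra2c was 0.11 without that library, so both of these signs rest on saline 5. With Adra1b and Adrb1 the r of Adra2a stayed negative without saline 5, at -0.18 (from -0.28) and -0.16 (from -0.31). Without saline 5 and cocaine 1 its r with Adrb1 was 0.01, and without saline 1 and saline 3 its r with Adra1b was -0.59. Adra2a with Adra1a had r = 0.20 over all libraries and 0.67 without saline 5.

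**Figure D5:**
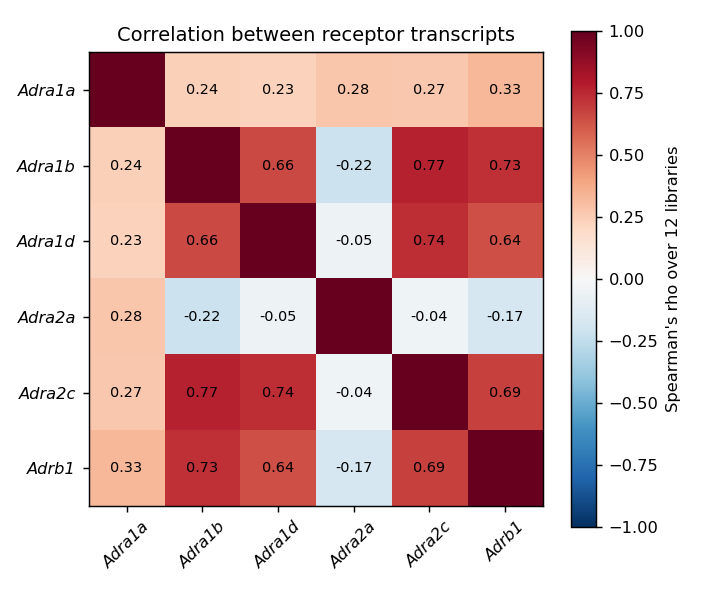
Spearman's rho between the 6 receptors over 12 libraries of both groups, from blue (negative) to red (positive). Adra1b, Adra1d, Adra2c and Adrb1 share rho of 0.64 to 0.77, while Adra2a lies between -0.22 and 0.28 with every other member.

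Marker lists of 10 cell types were set beside the members, which with the length contrast makes 66 relations, over all of which p-values were adjusted. The relation of Adra1a with the length contrast, which was picked from these data, ranks first among them. Its inclusion lowers the adjusted p of the relations ranked next. Without it, no rho with a marker list would stay under an adjusted p of 0.05, nor would the r of Adra1a with the excitatory neuron score. The r of Adra2c with the choroid plexus score and of Adra1a with the interneuron score would stay under it. Oligodendrocyte markers (7 of 7 tested) differed widely between libraries of both groups, with summed levels from 32322 to 231518 normalised reads in saline and from 48495 to 190242 after cocaine. Adra1b ran opposite to their score (r = -0.75, adjusted p = 0.0671; rho = -0.81, adjusted p = 0.0478; permutation tests, n = 12). The r of Adra2c with it was similar, but neither of its values passed (r = -0.74, adjusted p = 0.0744; rho = -0.76, adjusted p = 0.0588; permutation tests, n = 12). Without saline 1 and saline 4 the values were r = -0.84 for Adra1b and r = -0.77 for Adra2c.

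Adra2c also ran opposite to the choroid plexus and ependyma score, which rests on 2 of 4 genes (r = -0.73, adjusted p = 0.0268; rho = -0.80, adjusted p = 0.0478; permutation tests, n = 12). Without saline 5 and cocaine 4 its r was -0.77. Ttr and Folr1, defining markers of the choroid plexus, were at 0 in at least 1 library.

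Adra1a followed the excitatory neuron score (r = 0.81, adjusted p = 0.0408; rho = 0.83, adjusted p = 0.0452) and ran opposite to the interneuron score (r = -0.77, adjusted p = 0.0268; rho = -0.76, adjusted p = 0.0574; permutation tests, n = 12). Without saline 3 and saline 5, r with the excitatory score was 0.71. Without saline 4 and cocaine 2, r with the interneuron score was -0.70. Adra1a also had r = 0.974 with the length contrast and r above 0.9 with 1014 of 11566 genes. Its relations with these scores were not separated from that shared pattern. None of the 10 lists held a gene that passed between groups, where 0 percent of all genes passed (limma). The lowest exact permutation p of the list scores was 0.0779, for microglia. By their means, oligodendrocyte genes were 0 higher and 7 lower of 7 (median -0.19, log2), oligodendrocyte precursor genes 0 and 5 of 5 (median -0.14), choroid plexus genes 0 and 2 of 2 (median -1.47), endothelial and mural genes 1 and 6 of 7, microglial genes 1 and 5 of 6, and red blood cell genes 4 higher and 0 lower of 4 (median 0.50). The choroid plexus difference includes saline 5, with 11623 summed normalised reads of that list, against at most 292 in a cocaine library. The choroid plexus score did not separate the groups (exact permutation p = 0.286). The other 4 lists were excitatory neurons with 6 higher and 3 lower, interneurons with 4 and 4, striatal neurons with 2 and 6, and astrocytes with 2 and 5. The part of tissue makeup in the spread of the receptors was not tested.

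For each of the other members the 2 most similar genes over the 12 libraries were as follows. Adra1b was closest to Arpc4, a subunit of the actin-nucleating Arp2/3 complex (r = 0.957), and Prmt9, a protein arginine methyltransferase (r = 0.935). Adra1d was closest to Obsl1 and the inward rectifier potassium channel Kcnj4 (r = 0.949 for both). Adra2a was closest to Mafk, a small Maf transcription factor (r = 0.933), and Prdm16 (r = 0.868, and 0.676 without saline 5 and cocaine 1). Adra2c was closest to the mitochondrial glutamate carrier Slc25a22 (r = 0.931) and Klhl22 (r = 0.921). Adrb1 was closest to Bysl (r = 0.823) and Rnf19b (r = 0.821), the lowest r of the 6 members. Over all 12 libraries no gene had an r above 0.9 with Adrb1, but without saline 5 its r with Bysl was 0.925.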

How the data were processed

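RNA of prefrontal cortex was sequenced in 12 libraries, grouped by their treatment label. Libraries were made from 1 µg of total RNA with a TruSeq kit, per the labels' protocols, and the submitters' processing notes list HISAT2 2.0.5. Which program counted reads, whether it used strand, and with what annotation is not given in the sources used here. The notes list hg38, but gene IDs and coordinates are of mouse. The deposited values are a signal, by their values read counts scaled by a size factor for the whole library: in each library 100 percent of values were whole multiples of what 1 read is worth, within 0.01 read. They are called normalised read counts. The deposited table also holds the authors' log2 fold change, p-value and adjusted p-value, and gene length. FPKM was computed from value, length and column sum.

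The test was limma 3.58.1 in R 4.3.3 (empirical Bayes, variance trend, two-sided) on log2(value + 1), which understates changes of low genes, keeping genes whose mean FPKM reached 1. Exact permutation tests ran over all 924 splits, with a smallest p of 0.00216. Correlations used 100000 permutations. Scripts were tested on simulated data. edgeR 4.0.16 and DESeq2 1.42.0 were run on recovered reads. Named genes were the members, the rest of the family, Dusp1, per partner list the 2 tested genes with the smallest p, and per member the 2 genes of highest r. Of these, 3 are not reported here. Members and lists were chosen with earlier results of these data known.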

Additional observations from a re-analysis of the deposited data

Results flagged for a closer look

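Of 44 groups of 6 values examined (22 genes in 2 groups), 3 held a library that stood far from the other 5; chance gives about 1 in 20. Adra1d in cocaine 3 was the lowest of its group, at 583 normalised reads against 788 to 901 in the others. Adra2b in saline 5 was the highest of its group, at 15.2 normalised reads against 0.923 to 4.49; saline 5 is the library with choroid plexus transcripts. Maob in cocaine 3 was the highest of its group, at 586 normalised reads against 443 to 477.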

How the results depend on the processing

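The count of receptors past the adjusted threshold was 0 under 19 alternative fits and with each of the 12 libraries left out (5 receptors were tested at a minimum of 5 FPKM, without Adra1a). The fits with the first component or the length contrast as a covariate were added after the data were seen. The count over all genes was 0 in each except DESeq2, which passed 3. The median difference of the 6 receptors (0.03, log2) was -0.03 to 0.11 with 1 library left out and -0.03 to 0.05 otherwise. Adra1a (-0.13) was 0.0415 with the length contrast as a covariate and -0.43 to 0.12 with 1 library left out. Adra1b (0.05) was -0.0186 to 0.15 with 1 library left out. Adra1d (0.01) was -0.11 with library weights, -0.0114 with the oligodendrocyte score as a covariate, -0.00738 by edgeR with no count filter, and -0.0818 to 0.10 with 1 library left out. Gnas ranged from -0.19 to 0.000785 and Cacna1b from -0.24 to 0.00125 with 1 library left out. Each of the other 9 partners tested and named kept its sign but moved by over 1.5 times with 1 library left out: Th -0.17 to -0.05, Maob 0.004 to 0.11, Gnal -0.14 to -0.04, Grk3 -0.14 to -0.03, Grk5 -0.18 to -0.01, Plcb3 -0.23 to -0.08, Adcy8 0.14 to 0.28, Pde4a -0.13 to -0.02 and Kcnj3 0.03 to 0.13. Adra2a (-0.22 to -0.08), Adra2c (0.11 to 0.20) and Adrb1 (0.07 to 0.17) kept their signs in all of these. The r of Adrb1 with Bysl (0.823) was 0.782 to 0.925, the highest without saline 5. Dusp1, not called by limma, passed with DESeq2 (adjusted p = 0.0188). The number of receptor pairs past the threshold by Pearson's r (0 of 15) was 1 on deviations from the group means and 0 to 1 with 1 library left out (1 without saline 3). The order of the 6 levels was the same with each library left out, in 15 of 15 pairs, and in 14 of 15 with no division by length.

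With the replicate block, the median difference was 0.03 and 0 receptors passed. The numbers share no stated origin. Deviations of same-numbered libraries correlated from -0.40 to 0.43, over 0.1 for 2 of 6 numbers. For 2 of 6 saline libraries the same-numbered cocaine library was the best match. For 0 of 6 numbers were the same-numbered libraries each other's best match. Depth limits Adra2b, and the spread between libraries limits Adra1a.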
